A study of Homo sapiens with 8 samples.

Results

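The nuclear genes for the subunits of the respiratory chain and of the ATP synthase were examined in 2 epithelial ovarian cancer cell lines with and without silencing of SFPQ, a nuclear RNA-binding protein that acts in splicing and transcription. Members were the genes with symbols beginning NDUFA, NDUFB, NDUFC, NDUFS or NDUFV, SDHA to SDHD, UQCR, CYC1, COX4 to COX8 or ATP5, without the assembly factors NDUFAF and SDHAF, if a probe with a curated RefSeq mRNA accession was on the array. There were 86 such genes among 18187, read by 109 probes, and the brightest probe of each gene was used. They were 37 genes of complex I, 4 of complex II, 9 of complex III, 17 of complex IV and 19 of complex V.

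Complexes I to IV lie in the inner mitochondrial membrane and pass electrons from NADH and succinate to oxygen. Except for complex II, they pump protons across that membrane on the way. Complex V, the ATP synthase, lets the protons flow back and makes ATP. All 4 subunits of complex II are encoded in the nucleus, whereas each of the others also holds protein encoded in mitochondrial DNA, which is not among the members. Several subunits of complex IV exist as paired isoforms, one found in most tissues and one largely restricted to muscle, testis or other tissues.

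RNA was measured on 8 single-colour arrays, 2 for each of 4 groups. MDAH cells (MDAH-2774) and SKOV3 cells were each studied as controls and after silencing with lentiviral shRNA, with sh-SFPQ#2 on 1 array and sh-SFPQ#3 on the other. The labels name both control arrays of a line as control-shRNA cells, while the supplementary methods list 1 parental and 1 sh-ctrl sample per line, so a control is here any array without SFPQ silencing. No source used here says that the arrays of a group came from separate cultures, so p-values measure the spread between these samples, which may be technical, and in a silenced group that spread includes the difference between 2 shRNAs. The time between transduction and RNA extraction is not given in the sources used here.

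The array of MDAH cells with sh-SFPQ#3 was the dimmest, with a 75th percentile of 244 intensity units against 387 to 496 on the others. The share of probes that the scanner software marked as well above background lay between 47.7% and 57.1%. All samples shared 1 slide, where each line filled a row with its controls first, so the effects of group and of position cannot be told apart. SFPQ had log2 values of 3.64 and 3.91 in MDAH controls and 2.45 and 2.10 after silencing. In SKOV3 they were 4.84 and 4.66 in controls, then 3.01 and 2.48. It passed the test in both lines (adjusted p = 0.0332 in MDAH and 0.0291 in SKOV3, limma). With 1 array left out, its change was -1.68 to -1.33 in MDAH and -2.27 to -1.74 in SKOV3. SFPQ did not pass in every such fit. ERBB2, known to be amplified in SKOV3, was between 1.90 and 2.33 in MDAH and between 6.05 and 6.49 in SKOV3. Of 6 epithelial markers, 5 were above background on all 8 arrays, as were PAX8 of 4 ovarian or Mullerian markers, 3 of 5 leukocyte markers, 1 of 3 endothelial and 1 of 3 fibroblast markers. Among the defining markers of other cells, CD3E and LUM were not above background on any array and PECAM1 on 1, while PTPRC was dim on all 8, at -3.51 to -2.28. The part of other cells in the results was not tested. Here and below a level is the log2 of the background-subtracted signal minus the array's 75th percentile, and a difference or change is in log2 units.

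All 86 members passed the filter, which asked for a detected signal on the 2 arrays of any 1 group, and 81 were well above background on all 8 arrays, against 81.0% of the 14181 genes tested. The remaining 5 were the complex IV isoforms COX4I2, COX6A2, COX7A1, COX7B2 and COX8C. The reference table also lists 186 pseudogenes whose symbols follow the rule, and whether probes of members read any of them was not tested. When the tested genes were ranked by mean signal and divided into 10 equal bins, 63 members lay in the brightest bin. Probes of different genes cannot be compared in level, so all comparisons below are of 1 probe across arrays.

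The first comparison asked how the controls of the 2 lines differed. As a set, the subunits differed less between the lines than genes at large did. UQCRH and 3 tissue-restricted isoforms of complex IV had the largest differences among them. The difference, SKOV3 minus MDAH, passed an adjusted p of 0.05 (limma, Benjamini-Hochberg over all 14181 genes) in 37 of 86 members (43.0%), with 25 higher and 12 lower in SKOV3, while 58.3% of all genes tested passed. At an unadjusted p under 0.05 it was 39 members (45.3%) against 62.9% of all genes. The median size of the difference was 0.37 for the members and 0.77 for all genes, and 13 members (15.1%) differed by more than 1 log2 unit against 40.1% of all genes. In the brightest bin, which includes the 63 members, 51.3% of genes passed with a median size of 0.52, and 28 of those members (44.4%) passed with a median size of 0.38. The count of 37 was 19 without MDAH control 1, 21 without SKOV3 control 1 and 20 without SKOV3 control 2, where 44.6%, 46.0% and 46.5% of all genes passed, and the members called in those fits were all among the 37.

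**Figure D1:**
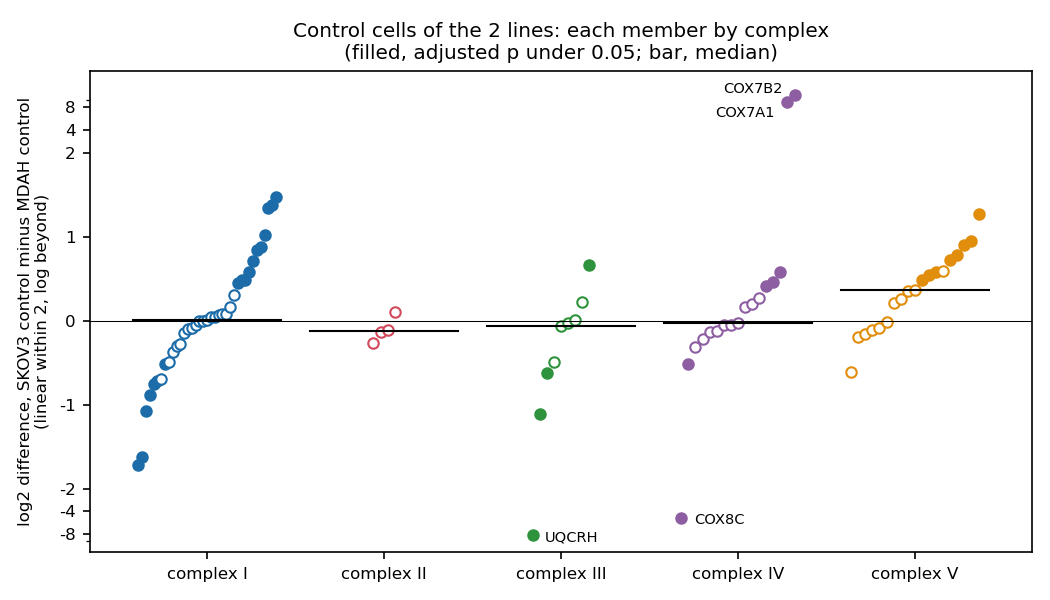
Difference in log2 units between the controls of SKOV3 and MDAH (vertical axis, linear within 2 and logarithmic beyond) for each of the 86 members, grouped by complex; filled points passed the test (37 members) and bars are medians. The median of complex V lay above 0, at 0.36, with 6 of its 19 members below 0. UQCRH, COX8C, COX7A1 and COX7B2 stood far outside the rest.

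In complex I, which takes electrons from NADH, 18 of 37 members (48.6%, all genes 58.3%) were called, 11 higher in SKOV3 and 7 lower. The median of the complex was 0.01. NDUFA11, a membrane-arm subunit, had levels of 5.10 and 5.22 in MDAH controls and 6.62 and 6.64 in SKOV3 controls (difference 1.47, standard error 0.16, adjusted p = 0.000304, limma). NDUFC2 and NDUFB4 were higher in SKOV3 by 1.38 and 1.34, and NDUFA3 by 1.02. NDUFA5, of the module that passes electrons to ubiquinone, was at 4.50 and 4.46 in MDAH and 2.73 and 2.78 in SKOV3 (difference -1.72, standard error 0.22, adjusted p = 0.000726, limma). NDUFV3, an accessory subunit of the NADH-oxidizing module, differed by -1.63, NDUFB8 by -1.08, NDUFB10 by -0.88 and NDUFB6 by -0.76. The groups did not overlap in any of these genes. Of the 7 core subunits on the list, which carry the flavin and the iron-sulfur clusters, 1 passed: NDUFV2, higher by 0.88. Values of the core subunits NDUFS1 and NDUFV1 were -0.30 and -0.38 and did not pass. The other probe of NDUFC2 gave a difference of 2.60 in the same direction.

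No subunit of complex II (succinate dehydrogenase) passed between the lines in this fit. SDHA, the flavoprotein, was at 5.67 and 5.78 in MDAH and 5.53 and 5.71 in SKOV3, and the differences of the 4 genes lay between -0.27 for SDHB and 0.10 for SDHC. With quantile normalization instead, all 4 were lower in SKOV3, with a median of -0.31, and 1 of them (25%, all genes 58.0%) was called. In complex III, which carries electrons from ubiquinol to cytochrome c, 4 of 9 members (44.4%, all genes 58.3%) were called. Of these, 1 was higher in SKOV3 and 3 were lower. UQCRQ was higher by 0.67, and UQCRC2 and UQCRC1, the core proteins, were lower by 1.11 and 0.62 (differences -1.11 and -0.62). CYC1 and UQCRFS1, which hold the heme and the iron-sulfur cluster, had differences of -0.06 and 0.01 that did not pass.

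UQCRH, the hinge protein of complex III, had the lowest difference among the members. Its levels were 7.72 and 7.82 in MDAH controls, and 7.93 and 8.28 after silencing by sh-SFPQ#2 and sh-SFPQ#3 in that order. In SKOV3 they were -0.69 and -0.21 in controls, then 1.47 and 2.98. Every SKOV3 array lay below every MDAH array, and in SKOV3 both silenced arrays lay above both controls. The control difference was -8.22 (standard error 0.46, adjusted p = 2.02e-05, limma), a 298-fold lower signal in SKOV3. The gene was well above background on all 8 arrays, and its second probe gave 7.56 and 7.63 in MDAH controls against -1.17 and -0.85 in SKOV3 controls. The silencing change was 2.67 in SKOV3 (standard error 0.46, adjusted p = 0.0630, limma) and 0.33 in MDAH (standard error 0.46, adjusted p = 0.690, limma). Averaged over both lines it rose by 1.503 (standard error 0.33, adjusted p = 0.0489, limma), and it was the 1 member that passed in that comparison, where 6.05% of all genes passed. The SKOV3 controls enter both the comparison of lines and the silencing changes.

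The call on the average did not hold in every fit. Its adjusted p from limma lay between 0.0255 and 0.160 over the other settings and between 0.00855 and 0.178 with 1 array left out, and it passed without SKOV3 sh-SFPQ#2 or sh-SFPQ#3 but not without any of the other 6 arrays. The change in SKOV3 alone lay between 1.92 and 3.43 with 1 array left out, and it passed without SKOV3 sh-SFPQ#2 (adjusted p = 0.00883, limma). The difference of the silencing changes, MDAH minus SKOV3, was -2.34 (standard error 0.65, adjusted p = 0.247, limma). UQCRHL, a close copy of UQCRH that matches the symbol rule in the reference table, had no curated mRNA probe here, and whether the UQCRH probes also read it was not tested.

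UQCRH starts next to LRRC41, a gene for a leucine-rich repeat protein that is read in the opposite direction. LRRC41 is not a member and was looked up after the values of UQCRH were seen. Its levels were 2.29 and 2.42 in MDAH controls and -3.37 and -3.41 in SKOV3 controls (difference -5.75, standard error 0.17, adjusted p = 1.80e-06, limma). With silencing it stood at 2.30 and 2.59 in MDAH and at -3.49 and -3.71 in SKOV3, with 1 array of each SKOV3 group above background, so that its silencing changes were 0.09 and -0.21 and passed in neither line (adjusted p = 0.773 and 0.519, limma). RAD54L and NSUN4, genes nearby that were looked up in the same way, differed between the controls by 0.48 and -0.17 and did not pass. The stretch between the starts of both genes is shown because the 2 genes it separates were both low in SKOV3. It lies at chr1:46303617-46303697 in GRCh38.p14, is read here on the plus strand in the direction of UQCRH, and holds 81 bases, with a match to the core of the ETS motif (CCGGAAG on the minus strand) in capitals.
UQCRH and LRRC41: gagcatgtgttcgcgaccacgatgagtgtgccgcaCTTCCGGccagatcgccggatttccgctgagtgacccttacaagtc

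**Figure D2:**
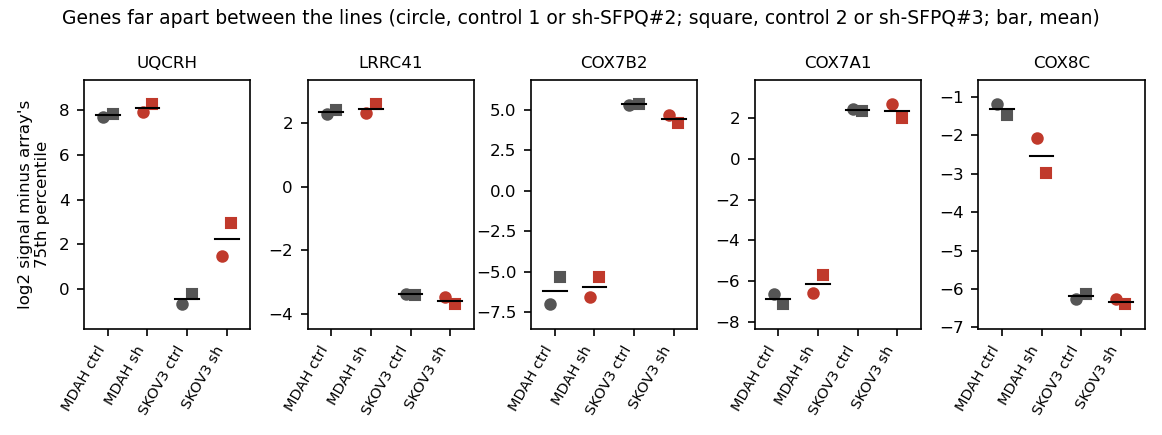
Log2 signal minus the array's 75th percentile (vertical axis, a separate scale per gene) on each array for UQCRH, its neighbour LRRC41 and 3 isoforms of complex IV, by group; circles are control 1 or sh-SFPQ#2, squares control 2 or sh-SFPQ#3, and bars are means. The lines did not overlap in any of the 5 genes; COX7B2 and COX7A1 in MDAH and COX8C in SKOV3 were not well above background, and LRRC41 was above background on 1 of the 2 arrays in each SKOV3 group.

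In complex IV (cytochrome c oxidase) 7 of 17 members (41.2%, all genes 58.3%) were called between the lines. They were 4 ubiquitous subunits and 3 isoforms with restricted tissue distribution, and these 3 had the largest differences. COX7B2, a paralogue of COX7B known mainly from testis, was at 5.31 and 5.36 in SKOV3 controls and 4.65 and 4.19 after silencing, and it was not well above background on any MDAH array. Its signal was at least 1821-fold higher in SKOV3 controls than in MDAH controls (adjusted p = 1.42e-05, limma). COX7A1, the isoform of muscle, was at 2.43 and 2.35 in SKOV3 controls and 2.69 and 1.99 after silencing and was not above background in MDAH, a signal at least 357-fold higher in SKOV3 (adjusted p = 5.17e-06, limma). COX8C, an isoform described in testis, went the other way. It was at -1.19 and -1.47 in MDAH controls and was not above background in SKOV3, at least 19.3-fold higher in MDAH (adjusted p = 2.95e-05, limma). A fold given as "at least" sets the mean of the brighter group against, on each dim array, the higher of the probe's own signal and the lowest signal counted as above background.

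The ubiquitous partners of these isoforms were present in both lines. COX7B was at 6.11 and 6.32 in MDAH controls and 6.003 and 6.16 in SKOV3 controls, COX7A2 differed by 0.17 and COX8A by -0.05, and none of the 3 passed. COX4I1 was at 6.21 and 6.18 in MDAH and 6.10 and 6.19 in SKOV3. COX4I2, its counterpart of lung, was well above background on 3 of 8 arrays, namely 1 MDAH control and both silenced SKOV3 arrays, and COX6A2, the isoform of heart and muscle, on 2 MDAH controls and 1 further MDAH array. Neither was above background in the SKOV3 controls, and neither passed between the lines. COX6B2, an isoform of testis, had levels of 2.84 and 2.89 in MDAH and 2.804 and 2.68 in SKOV3 and did not pass, and COX6B1 was higher in SKOV3 by 0.58 (adjusted p = 0.0473, limma). COX6A1 and COX6C were higher in SKOV3 by 0.42 and 0.46, and COX5B lower, with a difference of -0.51. Of the 11 other settings, COX6B1 was called in 7, COX6A1 in 8 and COX5B in 10.

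The starts of COX7B2 and COX8C are shown as those of members measured above background in 1 line but not in the other. Each sequence runs from 120 bases before the gene's start to 30 after it, in the gene's direction, from RefSeq in GRCh38.p14. COX7B2 lies at chr4:46909216-46909365 on the minus strand and COX8C at chr14:93347062-93347211 on the plus strand. Neither window holds 1 of the 3 motifs searched, so no letters are in capitals, and COX7A1 has no entry in the table used.
COX7B2: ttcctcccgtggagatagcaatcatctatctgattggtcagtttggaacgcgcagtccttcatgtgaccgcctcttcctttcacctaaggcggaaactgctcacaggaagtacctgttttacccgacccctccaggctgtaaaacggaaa
COX8C: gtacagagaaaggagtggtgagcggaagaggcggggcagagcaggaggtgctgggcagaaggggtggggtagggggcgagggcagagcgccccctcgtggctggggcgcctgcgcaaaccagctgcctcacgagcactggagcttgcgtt

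In complex V, the members called between the lines in this fit were all higher in SKOV3. Of its 19 members, 8 (42.1%, all genes 58.3%) were called higher in SKOV3 and 0 lower. At an unadjusted p under 0.05 there were 9 (47.4%, all genes 62.9%). The median was 0.36, against 0.08 for all genes and 0.23 in the brightest bin. In the peripheral stalk, which holds the catalytic head still, ATP5PB was at 3.96 and 3.94 in MDAH and 5.19 and 5.25 in SKOV3 (difference 1.27, standard error 0.13, adjusted p = 0.000269, limma), ATP5PF was higher by 0.95 and ATP5PD by 0.54, and ATP5PO had a difference of -0.11. Of the 5 subunits of the F1 head, ATP5F1A, the alpha subunit, passed with 0.91, and ATP5F1B, the catalytic beta subunit, was at 6.06 and 6.15 in MDAH and 6.04 and 6.13 in SKOV3. Of the 3 genes for the proton-carrying c ring, ATP5MC2 passed with 0.78, while ATP5MC1 and ATP5MC3 had 0.59 and 0.21. ATP5ME and ATP5MG of the membrane part were higher by 0.72 and 0.58, and ATP5IF1, the inhibitor of the enzyme, by 0.48. ATP5MF had the lowest value, -0.61, and did not pass (adjusted p = 0.0535, limma), but it was called lower in 7 of the 11 other settings and without either silenced MDAH array. The medians of the complexes moved with the scaling of the arrays, and that of complex V stayed above 0, from 0.16 to 0.51 over the 5 scalings tried, while that of complex I went from -0.18 to 0.16.

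The second comparison asked whether SFPQ silencing changed the subunits. No member passed the test in MDAH (0 of 86 with limma, against 1.94% of all genes) and none in SKOV3 (0 of 86, against 0.924% of all genes). At an unadjusted p under 0.05 with limma, there were 4 members (4.65%) in MDAH against 23.8% of all genes, 10 (11.6%) in SKOV3 against 19.7% and 7 (8.14%) in the average against 26.9%. The median change of the members was 0.09 in MDAH, where that of all genes was 0.11, and -0.24 in SKOV3, where that of all genes was -0.04. In MDAH, 59 members had values above 0 and 27 below. In SKOV3, 80 of 86 members (93.0%) had values below 0, against 54.2% of all genes. Both silenced SKOV3 arrays lay below both controls in 62 members (72.1%, all genes 32.4%) and above them in 3 (all genes 25.9%). In MDAH both silenced arrays lay above both controls in 19 members (22.1%, all genes 37%) and below them in 12 (14.0%, all genes 20.6%).

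These shifts were small, and the medians of all genes differed with signal strength. In the brightest bin, members included, the median change of all genes was -0.17 in SKOV3 and 0.18 in MDAH, and 73.1% of genes had values below 0 in SKOV3. The 63 members of that bin had medians of -0.24 and 0.10, and 60 of them were below 0 in SKOV3. Both silenced SKOV3 arrays lay below both controls in 52.5% of the genes of the bin and in 51 of its 63 members (81.0%). In the next bin the 14 members had medians of -0.26 in SKOV3 and -0.04 in MDAH, against -0.09 and 0.17 for all its genes. Whether signal strength accounts for the shift of the members was not tested. In a bulk sample, fewer cells of a type and less RNA per cell cannot be told apart.

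The size and, in MDAH, the sign of the medians depended on how arrays were scaled. With quantile normalization, which gives all arrays the same distribution of signals, the member median was -0.10 in MDAH (all genes 0.05) and -0.09 in SKOV3 (all genes 0.01), 60 members were below 0 in MDAH and 65 in SKOV3, and both silenced arrays lay below both controls in 31 members in each line (36.0%, against 23.2% of all genes in MDAH and 26.0% in SKOV3). With each array centred on its median, the member median was 0.20 in MDAH and -0.27 in SKOV3, and that of all genes was 0.23 and -0.08. The member median minus that of all genes was below 0 in both lines in each of the 12 settings that left out no array of the contrast, from -0.15 to -0.01 in MDAH and from -0.20 to -0.10 in SKOV3. With 1 array left out, it lay between -0.12 and 0.04 in MDAH and was above 0 without sh-SFPQ#2 and without control 2 of that line.

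**Figure D3:**
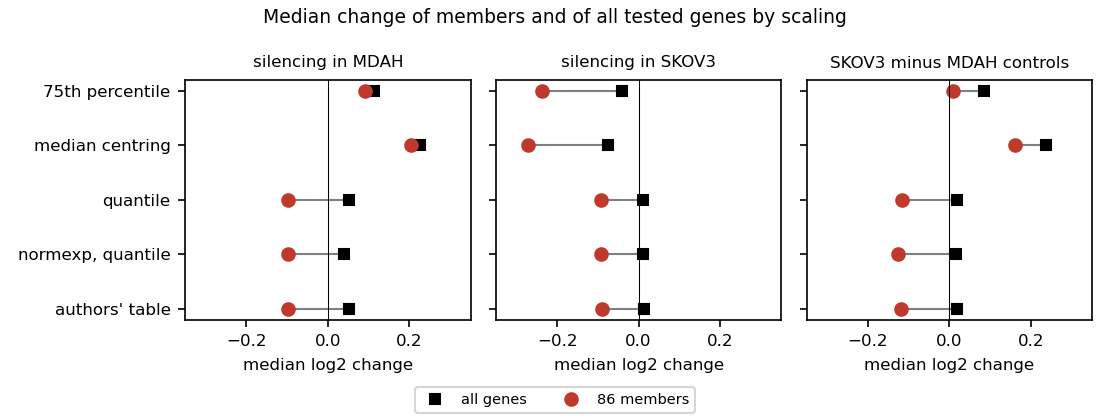
Median log2 change (horizontal axis) of the 86 members (circles) and of all 14181 genes tested (squares) under 5 ways of scaling the arrays (rows), for silencing in each line and for the controls of the lines. The member median in MDAH lay above 0 with the 75th percentile and with median centring and below 0 with the other 3, and it was below that of all genes in each row.

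**Figure D4:**
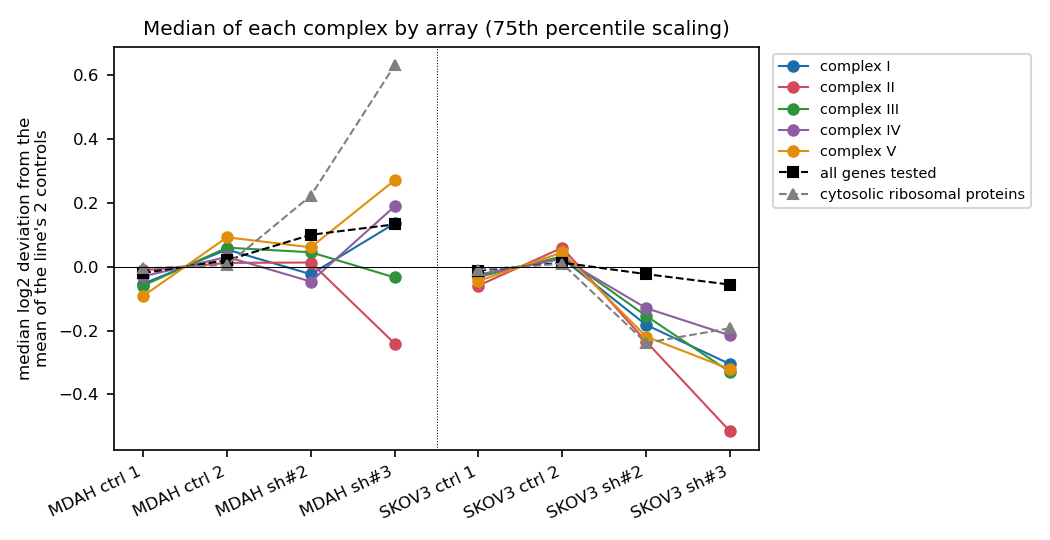
Median log2 deviation from the mean of the line's 2 controls (vertical axis) of each complex, of all genes tested and of the cytosolic ribosomal proteins, on each of the 8 arrays after scaling to the 75th percentile. In SKOV3 all 5 complexes lay below 0 on both silenced arrays, and in MDAH the array with sh-SFPQ#3 spread them between -0.24 for complex II and 0.27 for complex V.

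By complex, the SKOV3 medians were -0.23 for complex I, -0.40 for II, -0.23 for III, -0.14 for IV and -0.28 for V. Both shRNAs gave medians below 0 in every complex, with -0.18 (sh-SFPQ#2) and -0.31 (sh-SFPQ#3) in complex I and -0.22 and -0.32 in complex V. In MDAH the medians were 0.04, -0.11, 0.04, 0.10 and 0.17 for complexes I to V. The MDAH array with sh-SFPQ#2 gave complex I a median of -0.02 and the dim array with sh-SFPQ#3 gave 0.14. In complex V, 18 of 19 members were above 0 in MDAH and 18 below 0 in SKOV3. Within that complex the medians of the F1 head, c ring, peripheral stalk and membrane subunits were 0.22, 0.14, 0.12 and 0.21 in MDAH and -0.22, -0.36, -0.19 and -0.31 in SKOV3. Quantile normalization gave complex V -0.02 in MDAH and -0.09 in SKOV3.

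The difference between the 2 silencing changes, MDAH minus SKOV3, was above 0 in 80 of 86 members, with a median of 0.30 against 0.13 for all genes and 0.33 in the brightest bin. No member passed (0 of 86 with limma, against 0.0846% of all genes). At an unadjusted p under 0.05 there were 6 members (6.98%) against 15.2% of all genes, and with quantile normalization the median was -0.02. The cytosolic ribosomal proteins, 87 tested genes that are nearly all bright, had medians of 0.41 in MDAH and -0.23 in SKOV3, and of 0.07 and -0.01 with quantile normalization. The 77 mitochondrial ribosomal proteins had medians of 0.08 and -0.22.

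Among single members, NDUFS4 and NDUFA10 had the lowest values in the average of both lines. NDUFS4, an accessory subunit of the NADH-oxidizing module whose loss causes complex I deficiency, had levels of 4.70 and 4.54 in MDAH controls, and of 4.05 (sh-SFPQ#2) and 3.32 (sh-SFPQ#3) after silencing. In SKOV3 it was at 4.78 and 4.80 in controls, then 4.35 and 3.77 in the same order. Both silenced arrays lay below both controls in each line. The changes were -0.94 in MDAH (standard error 0.29, adjusted p = 0.129, limma), -0.73 in SKOV3 (standard error 0.29, adjusted p = 0.234, limma) and -0.83 in the average (standard error 0.20, adjusted p = 0.0628, limma). They did not pass, and without MDAH sh-SFPQ#2 the MDAH value was -1.30 and passed (adjusted p = 0.0469, limma). The average passed without MDAH sh-SFPQ#2 (adjusted p = 0.0239, limma) or without SKOV3 sh-SFPQ#2 (adjusted p = 0.0428, limma).

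NDUFA10, an accessory subunit of the membrane arm, was at 4.76 and 4.82 in MDAH controls, then 4.33 and 3.62. In SKOV3 it was at 4.07 and 4.12, then 3.47 and 2.68. The changes of -0.82 and -1.02 did not pass (adjusted p = 0.189 and 0.162, limma), nor did the average of -0.92 (standard error 0.23, adjusted p = 0.0634, limma). Without MDAH sh-SFPQ#2 or without SKOV3 sh-SFPQ#2 the average passed (adjusted p = 0.0319 and 0.0315, limma). Its dimmer probe gave -0.62 and -0.98. SDHD, which anchors complex II in the membrane, was at 3.36 and 3.28, then 3.07 and 2.75 in MDAH, and at 3.16 and 3.22, then 2.96 and 2.49 in SKOV3. Its changes were -0.41 and -0.46 (adjusted p = 0.269 and 0.275, limma), and its 3 probes gave between -0.53 and -0.32 in MDAH and between -0.46 and -0.38 in SKOV3. In these 3 genes, as for SFPQ itself, the array with sh-SFPQ#3 was the lowest of each line. That order, with both shRNAs below both controls in both lines, held for 8 of 86 members (9.30%) and for 7.26% of all genes, so that the members' share was close to the background. With quantile normalization it held for 10 members (11.6%) and 7.35% of all genes. The other 5 of the 8 were NDUFA6, NDUFS8, SDHC, COX8C and ATP5MGL, but COX8C was not above background on any SKOV3 array, so its order there cannot be read. Among genes above background on all 8 arrays the order held for 7 of 81 members (8.64%) and 6.59% of genes.

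**Figure D5:**
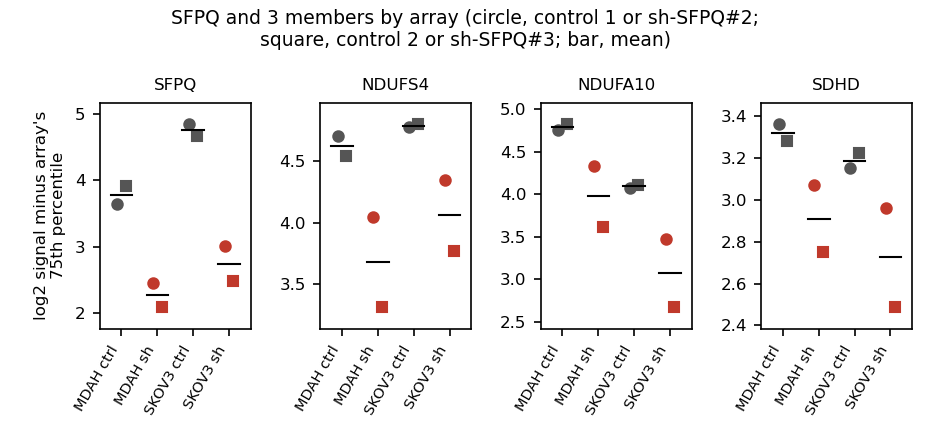
Log2 signal minus the array's 75th percentile (vertical axis, a separate scale per gene) on each array for SFPQ, NDUFS4, NDUFA10 and SDHD, by group; circles are control 1 or sh-SFPQ#2, squares control 2 or sh-SFPQ#3, and bars are means. In each gene and line both silenced arrays lay below both controls and the one with sh-SFPQ#3 was the lower.

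The starts of NDUFS4 and NDUFA10 are shown as those of the members with the lowest average changes, over the same window as above. NDUFS4 lies at chr5:53560519-53560668 on the plus strand, with a match to the core of the YY1 motif (AAGATGGC) in capitals. NDUFA10 lies at chr2:240025313-240025462 on the minus strand and holds none of the 3 motifs.
NDUFS4: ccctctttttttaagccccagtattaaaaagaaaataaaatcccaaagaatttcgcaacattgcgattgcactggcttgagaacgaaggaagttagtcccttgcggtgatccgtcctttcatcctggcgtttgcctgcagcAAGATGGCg
NDUFA10: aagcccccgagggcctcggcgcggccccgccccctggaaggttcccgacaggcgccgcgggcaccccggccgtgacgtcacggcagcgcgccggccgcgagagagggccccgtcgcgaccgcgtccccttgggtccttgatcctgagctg

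Other members at the ends of their complexes were as follows. COX8C in MDAH, where it was measured, went from -1.19 and -1.47 to -2.06 and -2.99, a change of -1.20 (standard error 0.30, adjusted p = 0.0945, limma). Without sh-SFPQ#2 the value was -1.66 and passed (adjusted p = 0.0124, limma). COX7A2L, a factor of supercomplexes of complexes III and IV, was at 5.21 and 4.78 in MDAH controls and 5.56 and 5.42 after silencing, with a change of 0.50 that did not pass. COX7B2 had a change of -0.91 in SKOV3 (adjusted p = 0.432, limma). The dim COX4I2 was above background on the silenced SKOV3 arrays alone of that line, at -3.91 and -3.40. The SKOV3 controls were at -4.19 and -4.88. The measured change of 0.88 did not pass (adjusted p = 0.211, limma) and was as small as 0.27 in the other settings. ATP5IF1 was the one complex V member with a value above 0 in both lines, 0.18 and 0.14, and ATP5MGL, a gene close to ATP5MG in sequence that may share its signal, the one below 0 in MDAH, with -0.16 and -0.55. UQCRB, a ubiquinone-binding subunit, had -0.10 and -0.37 by its brightest probe and 1.05 and 1.499 by its dimmer probe, so that its direction depended on the probe. Of the 17 members with more than 1 probe above background on all arrays, the probes differed in sign in 4 genes in MDAH and in 3 in SKOV3.

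The related gene COXFA4, known for long as NDUFA4 and now placed in complex IV, falls outside the symbol rule and was described apart. It was at 7.18 and 7.31 in MDAH controls, 7.11 and 7.09 after silencing, 6.95 and 6.99 in SKOV3 controls and 6.77 and 6.76 after silencing. The changes of -0.14 and -0.20 did not pass. COXFA4L2, formerly NDUFA4L2, was not well above background on any array.

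Among 48 tested assembly factors none passed in either line alone. At an unadjusted p under 0.05 with limma there were 14 in MDAH (29.2%, all genes 23.8%) and 12 in SKOV3 (25%, all genes 19.7%). In the average 1 rose and 4 fell, which is 10.4% of the list against 6.05% of all genes. COX19, a copper-handling factor of complex IV, rose by 0.75, while COX20 and COX11 fell by 0.71 and 0.59, UQCC1 of complex III by 0.59 and CMC2 by 0.45 on the log2 scale. Among the 19 genes of the tricarboxylic acid cycle 1 (5.26%) passed in the average: SUCLG2, a subunit of succinyl-CoA ligase, fell by 1.26. Among 23 glycolysis genes 1 (4.35%) passed there: ENO2 rose by 0.73. None of the 21 electron carriers and exchange proteins and none of the 19 regulators of mitochondrial gene expression passed in either line or in the average. At an unadjusted p under 0.05 with limma, there were 3 carriers in MDAH (14.3%), 2 in SKOV3 (9.52%) and 3 in the average (14.3%). The regulators numbered 4 (21.1%), 6 (31.6%) and 7 (36.8%) in the same order, against 23.8%, 19.7% and 26.9% of all genes. Of the 77 mitochondrial ribosomal proteins, MRPL1 fell by 0.86 in SKOV3 (1.30% of the list, all genes 0.924%). MRPL1 and MRPS6 fell by 0.71 and 0.84 in the average (2.60%, all genes 6.05%).

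Promoter windows from 250 bases before to 50 after the start were found for 70 of 86 members in RefSeq (GRCh38.p14). They were searched on both strands for the cores of motifs bound by NRF1 (GCATGCGC), ETS factors such as GABP (CCGGAAG) and YY1 (AAGATGGC), factors known for their role at genes of mitochondria. The NRF1 core was found in 14 members (20%) against 4.89% of the windows of 15843 protein-coding genes, the ETS core in 21 (30%) against 16.5%, and the YY1 core in 12 (17.1%) against 4.66%. In all, 38 members held at least 1 of them, and in 0 did the ETS and YY1 matches share letters. By complex, the YY1 core was in 7 of 32 windows of complex I and in 0 of 14 of complex IV.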

How the data were processed

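The submitters' processing notes name Agilent Feature Extraction 10.7.3.1. The authors deposited scanner output with a linear, background-subtracted intensity per spot, not normalized between arrays, and a table of log2 values that was found to hold quantile-normalized signals minus each probe's median (r of at least 0.999997 per array with values recomputed in this way, column medians -0.03 to 0.01). The labels give 0.1 µg of RNA per labelling and the paper a larger amount. Control and outlier spots (209 to 310 per array) were left out, spots of a probe averaged as log2 values, and each array's 75th percentile subtracted. Probes were named through RefSeq mRNA accessions (24546 of 25219 matched), 18191 genes in all, of which 18187 had values on every array. limma 3.58.1 in R 4.3.3 was fitted to the 4 groups together (4 residual and 2.69 prior degrees of freedom), with adjustment over 14181 genes and a threshold of 0.05, and was tested on simulated data. The number of arrays limits the precision. Members and lists were chosen with earlier results of these data known. Named are members that passed (at most 20 per comparison), the highest and lowest of each complex, isoform pairs, catalytic subunits and, from the other lists, genes that passed; LRRC41, RAD54L, NSUN4, COX7A2L, ATP5PO and members that complete a count or a complex were chosen after values were seen. Alternatives were 3 other scalings, the authors' table, filters, probe choices, an intensity trend, fewer arrays, a replicate block and leaving out each array. Normexp used median pixel intensities, chosen after seeing the data. Some items are not reported here.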

Additional observations from a re-analysis of the deposited data

How the results depend on the processing

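The calls on silencing were few and moved with the setting. In SKOV3, 1 member, UQCRH, was called with normexp and quantile normalization (1.16%, all genes 2.04%). The same member was called with genes above background on all 8 arrays (1.23%, all genes 0.905%). It was also called with the least variable probe (1.16%, all genes 2.09%) and with an intensity trend (1.16%, all genes 1.61%). The count in SKOV3 also moved with 1 array left out. In MDAH, 0 members were called in each setting that left out no array of the contrast, where 0.846% to 4.04% of all genes were called. The count in MDAH moved with 1 array left out. In the average, 0 were called with quantile normalization (all genes 5.41%) or the authors' table (5.42%). Likewise 0 were called with no filter on dim probes (all genes 1.81%) or with the replicate block (1.21%). UQCRH, NDUFS4 and NDUFA10 were called with normexp and quantile normalization (3.49%, all genes 9.50%). The same 3 were called with genes above background on all 8 arrays (3.70%, all genes 7.91%) or with the intensity trend (3.49%, all genes 9.19%). The count in the average also moved with 1 array left out. Between the lines, 19 to 38 were called with 1 array left out, and 30 of the 38 called with quantile normalization were among the 37.

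The member median in MDAH was -0.098 with quantile normalization, -0.097 with the authors' table and with normexp, 0.20 with median centring, and -0.017 to 0.169 with 1 array left out. In SKOV3 it was -0.091, -0.089, -0.092 and, with 1 array left out, -0.32 to -0.18, where quantile normalization, the authors' table and normexp stand in that order. Between the lines it was -0.117, -0.119 and -0.125 in the same order, 0.161 with median centring, and -0.049 to 0.089 with 1 array left out.

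The groups share replicate numbers, and same-numbered silenced arrays carry the same shRNA in both lines, but no source used here says that a number marks a shared culture, batch or day. Their deviations correlated between the lines with r = 0.09 for controls and 0.37 for silenced arrays. With the replicate block, 0 members were called in MDAH (all genes 1.18%), SKOV3 (0.219%), the average (1.21%) and the difference (0%). Between the lines there were 36 (41.9%, all genes 62.4%), 34 of them among the 37. There were 2 arrays per group and 4 residual degrees of freedom. Changes of the size seen in most members after silencing could not be told from the spread between arrays. For the 5 dim isoforms of complex IV, no exact value can be given where they were not above background.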
